A study of Mus musculus with 12 samples.

Results

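Collagen chain genes were taken as every entry of the count table whose symbol is Col, a number, a and a second number, such as Col1a1. The rule found 44 genes of 24421 entries, and 40 of them passed the filter on low counts that left 13937 genes for testing. Their mRNA was measured by RNA sequencing in the tibialis anterior, a hindlimb muscle, of 6 WT mice (strain C57Bl/6) and 6 mdx/mTR mice. All 12 animals were males aged 4 months. In mdx/mTR mice the mdx allele disrupts Dmd, which encodes dystrophin, and mTR is the name of the gene of the telomerase RNA. No group carries only 1 of these alleles, so what belongs to either cannot be told apart. The labels give each library its own title but no animal identifier, so p-values measure the spread between these samples.

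Collagens are the main structural proteins of the extracellular matrix, each built from 3 chains wound into a helix. Fibrillar collagens (types I, II, III, V, XI, XXIV and XXVII) form the cable-like fibrils of connective tissue. Type IV chains form the sheet of the basement membrane around each muscle fibre, and type VI forms beaded filaments that link that sheet to the surrounding matrix. FACIT collagens, which are fibril-associated and have interrupted helices, sit on the surface of fibrils. Multiplexins (types XV and XVIII) are found at basement membranes, and a few collagens span the cell membrane. In skeletal muscle most fibrillar collagen is made by fibroblasts and fibro-adipogenic progenitors, and its build-up is called fibrosis, a feature of muscle that lacks dystrophin.

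Each WT library held 36903560 to 40981012 counts, and each mdx/mTR library 35136327 to 60330410. Levels are in CPM, the count of a gene relative to its library's scaled total, and a count of 3 corresponds to 0.0460 to 0.0837 CPM. Dmd, the check of the labels, lay at 228 to 244 CPM in WT and at 35.2 to 56.4 CPM in mdx/mTR, without overlap. The 5 muscle fibre markers (Ckm, Acta1, Tnnt3, Mylpf and Atp2a1) summed to 108353 to 120533 CPM in WT and 92829 to 123780 CPM in mdx/mTR. WT 2 and WT 4 stood apart from the other WT libraries for several chains, as did mdx/mTR 2 and mdx/mTR 5 from the other mdx/mTR libraries.

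Most collagen chains were more abundant in mdx/mTR muscle. Of the 40 tested chains, 27 rose, 3 fell (Col9a1, Col4a4 and Col4a3) and 10 did not pass an adjusted p of 0.05 in edgeR's quasi-likelihood test. Among all 13937 tested genes 25.0% rose and 23.4% fell by the same rule, 48.3% in all. The median log2 fold change of the tested chains was 0.86, and that of all tested genes was 0.01. Rises were largest for Col6a5 (log2 fold change 1.94), Col8a1 (1.69) and Col3a1 (1.67). For 20 of the 40 chains the 6 mice of 1 group lay entirely above the 6 of the other, against 25.2% of all tested genes. Without WT 2 and WT 4, 31 chains were higher and 3 lower, with a median of 1.03. Without mdx/mTR 2 and mdx/mTR 5, 22 were higher and 3 lower, with a median of 0.608. Both omissions, here and below, were chosen after seeing the data and serve as description only. Scaling by library totals alone moved the median of all genes from 0.0137 to 0.169 and that of the chains from 0.859 to 1.01, with 29 chains higher and 2 lower.

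**Figure D1:**
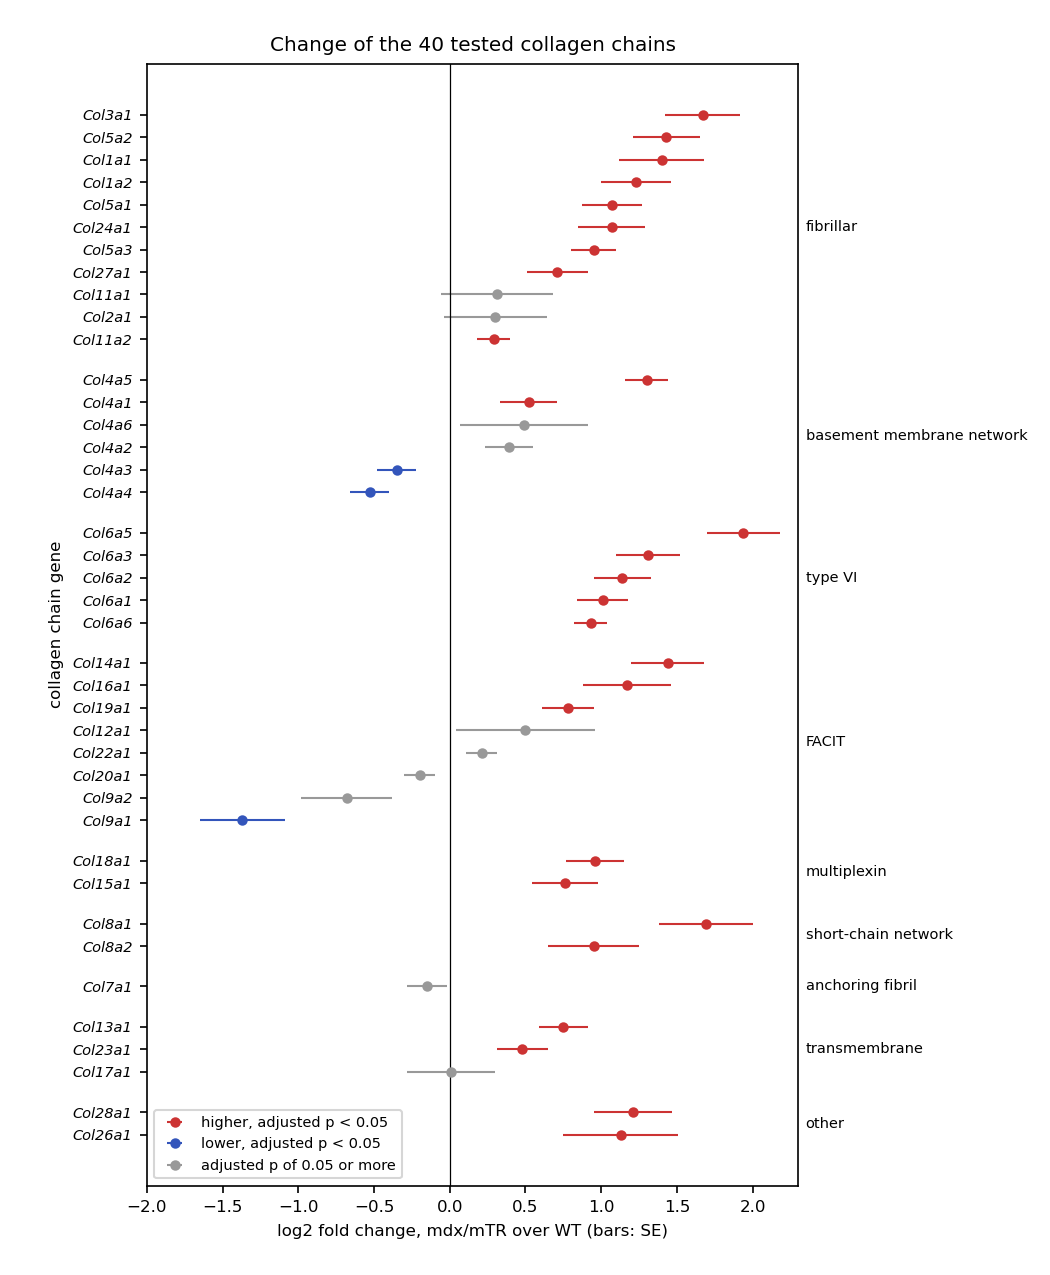
Log2 fold change (mdx/mTR against WT) for the 40 tested collagen chains, grouped by class on the vertical axis. Points are estimates and bars are standard errors. Red points are the 27 chains that rose, blue points the 3 that fell and grey points the 10 that did not pass the threshold. All 5 type VI chains lie to the right of 0, whereas type IV and FACIT chains lie on both sides.

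The stretches of DNA before 4 of these genes are shown because the genes differ in class and in response: Col3a1 and Col5a1 (fibrillar, raised), Col6a3 (type VI, raised) and Col9a1 (FACIT, lowered). Each is the 250 bases upstream of the start site, read 5′ to 3′ on the gene's own strand, from RefSeq on GRCm38.p6. Capitals mark matches to TATAAA (the core of a TATA box), CCAAT, or GGGCGG (the core of a GC box) on either strand, so that CCGCCC is GGGCGG on the opposite strand. The motifs do not overlap each other in these windows.
Col3a1 promoter, chr1:45311288-45311537, plus strand: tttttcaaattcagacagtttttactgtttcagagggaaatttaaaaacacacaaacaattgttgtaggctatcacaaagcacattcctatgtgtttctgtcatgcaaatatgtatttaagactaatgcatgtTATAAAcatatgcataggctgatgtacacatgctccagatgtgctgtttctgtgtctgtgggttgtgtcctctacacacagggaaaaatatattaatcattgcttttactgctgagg
Col5a1 promoter, chr2:27886175-27886424, plus strand: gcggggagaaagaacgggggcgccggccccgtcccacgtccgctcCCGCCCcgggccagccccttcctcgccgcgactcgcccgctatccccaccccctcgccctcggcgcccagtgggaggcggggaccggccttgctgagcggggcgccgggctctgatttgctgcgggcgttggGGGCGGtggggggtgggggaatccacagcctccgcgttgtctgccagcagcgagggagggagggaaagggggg
Col6a3 promoter, chr1:90843972-90844221, minus strand: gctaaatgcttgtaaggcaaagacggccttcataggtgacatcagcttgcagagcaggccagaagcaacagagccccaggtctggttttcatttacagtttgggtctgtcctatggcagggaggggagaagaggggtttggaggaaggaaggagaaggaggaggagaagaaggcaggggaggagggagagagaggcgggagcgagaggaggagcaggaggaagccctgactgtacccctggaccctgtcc
Col9a1 promoter, chr1:24177360-24177609, plus strand: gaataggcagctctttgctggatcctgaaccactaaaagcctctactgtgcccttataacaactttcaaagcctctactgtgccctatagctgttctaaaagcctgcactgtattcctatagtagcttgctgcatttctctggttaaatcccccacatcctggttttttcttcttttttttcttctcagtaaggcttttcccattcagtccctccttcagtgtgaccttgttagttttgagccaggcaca
Col3a1 holds 1 TATAAA, Col5a1 holds GGGCGG on each strand, and neither of the windows of Col6a3 and Col9a1 holds a match. A second start site of Col9a1 has a window of its own with CCAAT. A window was found for 35 of the 44 chains, 38 windows in all. TATAAA occurred in 5 of the 38, against 12.4% of all 32851 windows of the table. CCAAT occurred in 13 of the 38, against 33.8% of all windows, and GGGCGG in 22 of the 38, against 32.7%. These matches describe letters only.

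Fibrillar chains carried most of the collagen message. Of the 11 fibrillar chains, all tested, 9 rose, none fell, and Col11a1 and Col2a1 did not pass. Over all tested genes 25.0% rose and 23.4% fell. The median log2 fold change of the fibrillar chains was 1.07. Type III collagen, an early fibril of repairing tissue, has 1 chain, Col3a1 (chr1:45311538-45349706, plus strand), and it was the most abundant collagen mRNA per length in both groups, at 93.2 ± 28.6 CPM per kb in WT mice and 297 ± 115 in mdx/mTR mice (SD, n = 6 each). In WT 1 to WT 6 its level was 326, 720.2, 511, 680.2, 367 and 507 CPM. In mdx/mTR 1 to mdx/mTR 6 it was 1376, 2503, 1417, 1062, 2425 and 1143 CPM. Every mdx/mTR mouse was above every WT mouse, and mdx/mTR 2 and mdx/mTR 5 stood well above the other mdx/mTR mice. The mean rose from 519 ± 159 to 1654 ± 642 CPM, a log2 fold change of 1.67 ± 0.25 (SE, adjusted p 1.5e-04), the smallest p-value of the class. Without mdx/mTR 2 and mdx/mTR 5 it was 1.27 (adjusted p 2.5e-04).

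Type I collagen, the main tensile fibril, is made of 2 Col1a1 chains for each Col1a2 chain. Col1a1 (chr11:94936224-94953042, plus strand) lay at 166, 248 and 415 CPM in the lowest, median and highest WT mouse. The same 3 values were 438, 559 and 1244 CPM in mdx/mTR. The groups did not overlap, and mdx/mTR 5 was the highest mouse. Its log2 fold change was 1.40 ± 0.28 (adjusted p 0.0012), or 0.93 without mdx/mTR 2 and mdx/mTR 5 (adjusted p 0.0035). Col1a2 (chr6:4504814-4541544, plus strand) lay at 233, 352 and 520.2 CPM in WT and at 595, 731 and 1333 CPM in mdx/mTR. It rose by 1.23 ± 0.23 on the log2 scale (adjusted p 6.2e-04), again with no overlap. Per length the mean Col1a2 level in WT exceeded that of Col1a1, at 68.9 ± 20.1 against 45.5 ± 16.0 CPM per kb, and in mdx/mTR it was 162 ± 55.6 against 120.0 ± 54.2.

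Type V chains join type I in the same fibril and set its width. Col5a1 lay at 55.2, 79.6 and 104 CPM in the lowest, median and highest WT mouse and at 119, 138 and 239 CPM in mdx/mTR. Col5a2 lay at 42.6, 57.8 and 76.8 CPM in WT and at 114, 129 and 258 CPM in mdx/mTR. Neither overlapped between the groups, and the log2 fold changes were 1.07 ± 0.20 (adjusted p 6.3e-04) and 1.43 ± 0.22 (adjusted p 1.5e-04). Col5a3, the third type V chain, rose by 0.95 ± 0.15 on the log2 scale (adjusted p 1.5e-04), from 78.7 ± 12.2 to 152 ± 36.4 CPM. In WT the mean of Col5a3 per length (12.9 ± 1.99 CPM per kb) was above that of Col5a1 (9.25 ± 2.13). In mdx/mTR these means were 24.9 ± 5.95 and 19.3 ± 6.18 CPM per kb, a difference smaller than either SD, and Col5a2 lay between them at 23.9 ± 9.10.

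**Figure D2:**
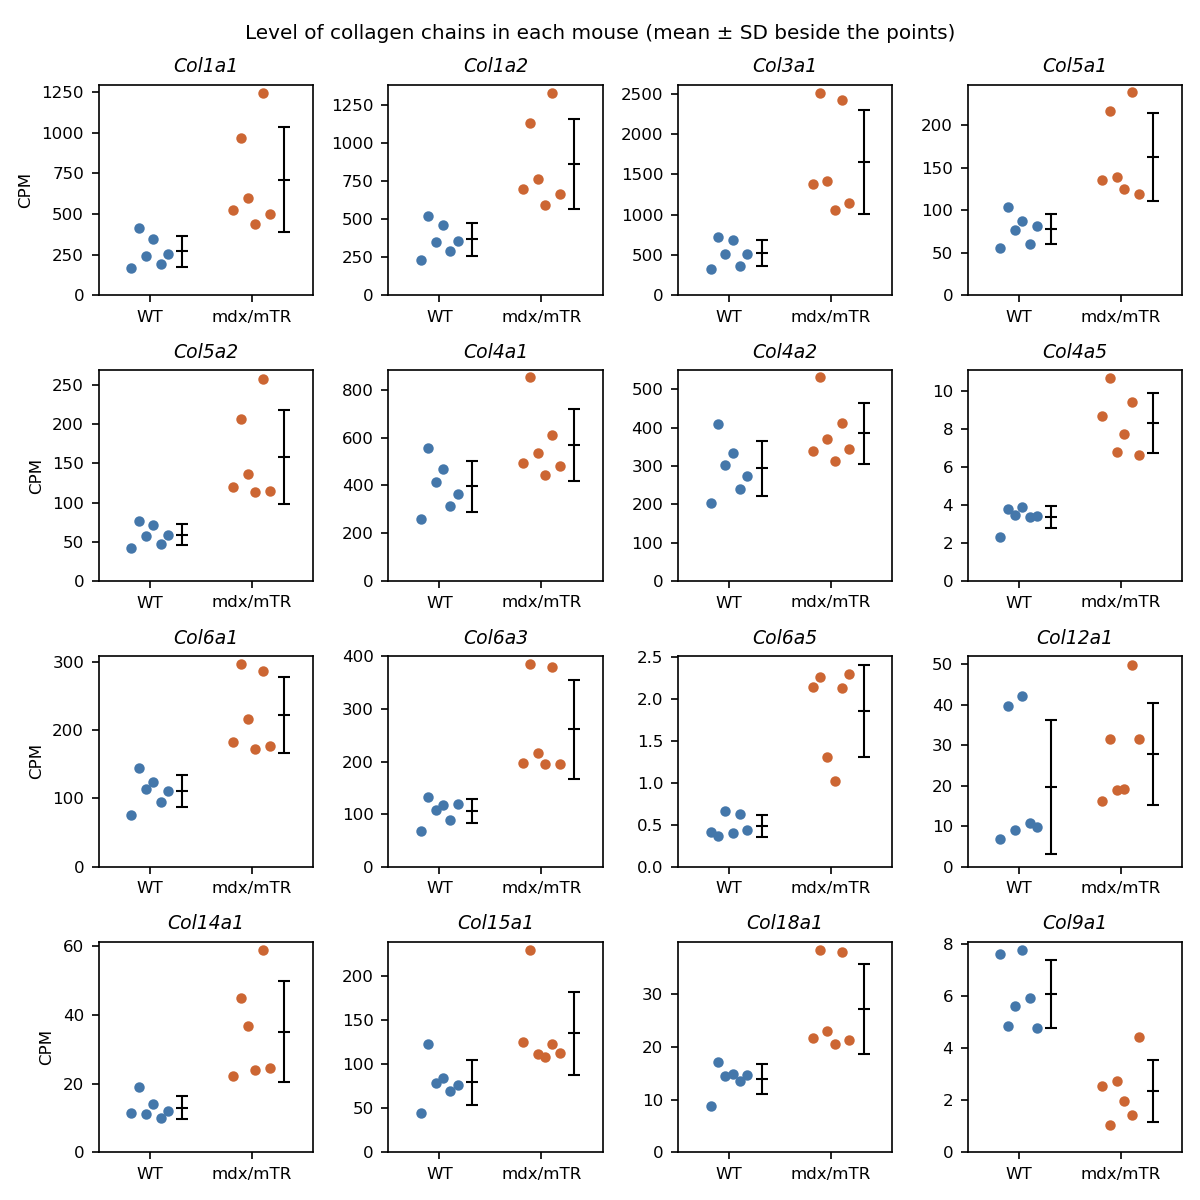
Level in CPM (vertical axis, starting at 0) of 16 collagen chains in each mouse, with WT in blue and mdx/mTR in orange. The bar beside each group of points is the mean with its SD over 6 mice. The highest mdx/mTR points of Col1a1, Col3a1, Col5a1, Col6a1 and Col14a1 belong to mdx/mTR 2 and mdx/mTR 5, and the 2 high WT points of Col12a1 to WT 2 and WT 4.

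The minor fibrillar chains were less uniform. Col24a1, a fibrillar collagen known from developing bone and cornea, lay at 9.71, 11.7 and 14.6 CPM in the lowest, median and highest WT mouse. Its levels in mdx/mTR 1 to mdx/mTR 6 were 44.9, 17.7, 19.6, 19.2, 19.0 and 32.4 CPM. Here mdx/mTR 1 and mdx/mTR 6 were the highest, not mdx/mTR 2 and mdx/mTR 5 as for types I, III and V. The log2 fold change of Col24a1 was 1.07 ± 0.22 (adjusted p 0.0015). Col27a1, a fibrillar chain of cartilage, rose from 2.57 ± 0.503 to 4.21 ± 1.34 CPM (0.71 ± 0.20, adjusted p 0.0102), but its call was lost without mdx/mTR 2 and mdx/mTR 5 (0.41, adjusted p 0.0656).

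Type XI chains nucleate fibrils in cartilage and tendon. Col11a1 lay at 1.56, 9.63, 2.61, 9.39, 3.97 and 3.67 CPM in WT 1 to WT 6, and at 4.11 to 8.67 CPM in mdx/mTR. WT 2 and WT 4 thus exceeded all mdx/mTR mice, while the other WT mice were below the lowest mdx/mTR mouse. With all mice its log2 fold change was 0.31 ± 0.37 (adjusted p 0.522), and without WT 2 and WT 4 it was 1.10 (adjusted p 0.0071). That omission was added after seeing the data and removes the 2 highest WT levels, so its p-value carries no weight as a test. Tnmd, a tendon marker, was also highest among WT mice in WT 2 (6.90 CPM) and WT 4 (4.91), against 2.64 to 4.13 in the other 4. Of the other tendon markers, Scx, Fmod and Thbs4 were highest in the same WT mice. Mkx (WT 4 at 0.557 CPM, WT 3 at 0.694) and Chad (WT 2 at 5.02 CPM, WT 6 at 6.13) were not. The part of these markers in the result was not tested. Col11a2 rose by 0.29 ± 0.11 on the log2 scale (adjusted p 0.0386), from 4.60, 5.58 and 7.43 CPM (lowest, median and highest) in WT to 6.13, 7.08 and 7.45 in mdx/mTR. That call was lost when any 1 of WT 3, 4, 5 or 6 or mdx/mTR 1, 3, 5 or 6 was left out, with values of 0.24 to 0.30, and without mdx/mTR 2 and 5 together (0.30, adjusted p 0.0709). Col2a1, the main fibril chain of cartilage, lay at 0.106, 0.270 and 0.670 CPM in WT and at 0.298, 0.338 and 0.492 CPM in mdx/mTR. For Col2a1 the log2 fold change was 0.30 ± 0.34 (adjusted p 0.488), at 4 to 30 counts per library.

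All 5 tested chains of type VI rose, where 25.0% of all tested genes did. They had log2 fold changes of 0.93 to 1.94 with a median of 1.14. None overlapped between the groups, where 25.2% of all tested genes did not overlap. All 5 stayed higher with each mouse left out in turn. The classic heterotrimer is made of Col6a1, Col6a2 and Col6a3, the genes whose mutations cause Ullrich and Bethlem muscular dystrophies. Col6a1 lay at 75.5, 112 and 144 CPM in the lowest, median and highest WT mouse and at 172, 199 and 297 CPM in mdx/mTR (1.01 ± 0.17, adjusted p 3.2e-04). Col6a2 lay at 59.5, 99.8 and 123 CPM in WT and at 160.1, 178 and 299 CPM in mdx/mTR (1.14 ± 0.19, adjusted p 2.8e-04). Col6a3 (chr1:90765923-90843971, minus strand) lay at 68.5, 112 and 133 CPM in WT and at 196, 206 and 385 CPM in mdx/mTR (1.31 ± 0.21, adjusted p 2.5e-04). In all 3 the highest mdx/mTR mice were mdx/mTR 2 and mdx/mTR 5, and WT 1 was the lowest WT mouse.

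The alternative type VI chains Col6a5 and Col6a6 can take the place of Col6a3. Col6a6 had the smallest p-value of the class. It lay at 6.31, 7.69 and 9.04 CPM in WT and at 12.2, 13.8 and 17.8 CPM in mdx/mTR, a log2 fold change of 0.93 ± 0.11 (adjusted p 1.7e-05). Col6a5 (chr9:105856078-105960643, minus strand) lay at 0.417, 0.363, 0.666, 0.398, 0.627 and 0.438 CPM in WT 1 to WT 6. The mdx/mTR mice, in order of their numbers, had 2.14, 2.26, 1.31, 1.02, 2.13 and 2.29 CPM. It was a scarce transcript in both groups, at 13 to 147 counts per library, and its rise of 1.94 ± 0.24 (adjusted p 3.1e-05) was the largest of all tested chains. The level of Col6a5 per length, 0.200 ± 0.0590 CPM per kb in mdx/mTR, remained far below that of Col6a3, 25.9 ± 9.29. Of the 50-base stretches of their longest coding transcripts, 3.48% (Col6a5) and 3.88% (Col6a6) occur in other genes. How such shared reads were counted is not given, so their effect on these levels is not known. Col6a4 was not tested, with 1 to 10 counts per library.

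Type IV chains, the network of the basement membrane, did not move as 1 group. Of the 6 chains, 2 rose (Col4a1 and Col4a5), 2 fell (Col4a3 and Col4a4) and 2 did not pass (Col4a2 and Col4a6). Their median log2 fold change was 0.44. Among all tested genes 25.0% rose and 23.4% fell, so such a mix of calls is not particular to type IV. Col4a1 and Col4a2 form the network present in all basement membranes. In WT 1 to WT 6 Col4a1 (chr8:11198423-11312826, minus strand) lay at 259, 557, 415, 469, 314 and 366 CPM. Among mdx/mTR 1 to mdx/mTR 6 the levels were 495, 853, 538, 442, 611 and 481 CPM. The groups overlapped because WT 2 exceeded mdx/mTR 1, 3, 4 and 6, and WT 4 exceeded mdx/mTR 4. Its log2 fold change of 0.52 ± 0.19 (adjusted p 0.0331) lost its call when any 1 of WT 1, 3, 5 or 6 or mdx/mTR 2 or 5 was left out, with values of 0.37 to 0.54. Without mdx/mTR 2 and 5 together it was 0.30 (adjusted p 0.17), and without WT 2 and 4 it was 0.75 (adjusted p 0.0068). Col4a2 (chr8:11312805-11449287, plus strand) lay at 203, 288 and 408 CPM in the lowest, median and highest WT mouse and at 313, 357 and 533 CPM in mdx/mTR, with a log2 fold change of 0.39 ± 0.16 (adjusted p 0.0576). It passed without WT 2 (0.51, adjusted p 0.0126), without WT 2 and 4 (0.59, adjusted p 0.0081) and without mdx/mTR 4 (0.45, adjusted p 0.0422). These omissions remove its highest WT levels or its lowest mdx/mTR level, so the passes carry no weight as tests. Col4a2 also passed in DESeq2 (0.39, adjusted p 0.0341), with upper quartile scaling (0.43, adjusted p 0.0414) and with library totals alone (0.55, adjusted p 0.0195).

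The scarcer type IV chains moved in opposite directions. Col4a5, an X-linked chain found with Col4a6 in some basement membranes and with Col4a3 and Col4a4 in others, had the smallest p-value of all tested collagens. It lay at 2.31, 3.46 and 3.90 CPM in the lowest, median and highest WT mouse and at 6.65, 8.21 and 10.7 CPM in mdx/mTR, a rise of 1.30 ± 0.14 (adjusted p 1.1e-05) with no overlap. Col4a4 lay at 3.45, 4.16 and 4.71 CPM in WT and at 2.37, 2.72 and 3.94 CPM in mdx/mTR (-0.53 ± 0.13, adjusted p 0.0040). Only mdx/mTR 3, at 3.94 CPM, reached into its WT range. Col4a3 lay at 4.22, 4.89 and 6.24 CPM in WT and at 3.03, 4.00 and 5.14 CPM in mdx/mTR (-0.35 ± 0.13, adjusted p 0.0383). The call of Col4a3 was lost when any 1 of WT 2, 4 or 6 or mdx/mTR 1, 4, 5 or 6 was left out, with values of -0.36 to -0.28. It was also lost without WT 2 and 4 (-0.21, adjusted p 0.214), without mdx/mTR 2 and 5 (-0.29, adjusted p 0.0936), with upper quartile scaling (-0.31, adjusted p 0.0666) and with library totals alone (-0.20, adjusted p 0.219). Part of Col4a3, 5.65% of its exon bases, overlaps C430014B12Rik on the opposite strand, and without knowledge of strand handling the 2 cannot be separated there. Col4a6 had 1 to 18 counts per library and a log2 fold change of 0.49 ± 0.42 (adjusted p 0.355).

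Each of these pairs lies head to head in the genome. Col4a1 and Col4a2 overlap by 22 bases on chromosome 8, Col4a3 and Col4a4 are 71 bases apart on chromosome 1, and Col4a5 and Col4a6 are 1308 bases apart on chromosome X (GENCODE M21, GRCm38). In the first pair the log2 fold changes were 0.52 and 0.39, in the second -0.35 and -0.53, and in the last 1.30 and 0.49. The 2 chains of a pair had the same sign in each case, although only the Col4a3 and Col4a4 pair had both chains past the threshold. The sign of Col4a6 is uncertain, at 0.49 ± 0.42 and 1 to 18 counts per library. The call of Col4a3 was lost under several omissions, as given above. The part of the arrangement in these changes was not tested.

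The FACIT class did not move as 1 group either. Of its 8 tested members 3 rose (Col14a1, Col16a1 and Col19a1), 1 fell (Col9a1) and 4 did not pass (Col12a1, Col22a1, Col20a1 and Col9a2). Their median log2 fold change was 0.36. Over all tested genes 25.0% rose and 23.4% fell, so mixed calls are not particular to this class. Col14a1, which binds fibrils in tendon, skin and the muscle's connective tissue sheaths, lay at 9.87, 11.7 and 19.1 CPM in the lowest, median and highest WT mouse. It lay at 22.1, 30.6 and 58.8 CPM in mdx/mTR, a rise of 1.44 ± 0.24 (adjusted p 3.3e-04) without overlap and the smallest p-value of the class. Col16a1 rose from 9.40 ± 3.81 to 21.2 ± 9.92 CPM (1.17 ± 0.29, adjusted p 0.0048), or by 0.72 without mdx/mTR 2 and 5 (adjusted p 0.0222). Col19a1, a scarce chain expressed during muscle differentiation, rose from 1.54 ± 0.291 to 2.65 ± 0.657 CPM (0.78 ± 0.17, adjusted p 0.0023).

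Col12a1, a FACIT of tendon and fascia whose mutations cause a muscle weakness disorder, split the WT group. It lay at 6.83, 39.6, 8.97, 42.2, 10.9 and 9.74 CPM in WT 1 to WT 6. The 6 mdx/mTR mice, by number, were at 16.3, 31.5, 19.0, 19.1, 49.7 and 31.5 CPM. WT 2 and WT 4 exceeded 5 of the 6 mdx/mTR mice, while the other 4 WT mice lay below all of them. With all mice the log2 fold change was 0.50 ± 0.46 (adjusted p 0.389), and without WT 2 and WT 4 it was 1.61 (adjusted p 0.0014). As for Col11a1, this omission was chosen after seeing the data and takes out the 2 highest WT levels. Its p-value therefore carries no weight as a test. The 6 tendon markers summed to 206 CPM in WT 2 and 209.9 in WT 4, against 134 to 189 CPM in the other WT mice and 242 to 486 in mdx/mTR; their part in the result was not tested.

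Col9a1 (chr1:24177610-24252684, plus strand), a chain of the type IX collagen of cartilage, fell the most of all tested collagens. It lay at 7.61, 4.86, 5.63, 7.75, 5.93 and 4.79 CPM in WT 1 to WT 6. In mdx/mTR 1 to mdx/mTR 6 it lay at 2.56, 1.04, 2.73, 1.98, 1.43 and 4.42 CPM. The groups did not overlap, although mdx/mTR 6 came close to WT 6, and mdx/mTR 2 and mdx/mTR 5 were the lowest here. Its log2 fold change was -1.37 ± 0.28 (adjusted p 0.0013), with values of -1.65 to -1.21 as each mouse was left out. Col9a2, a second type IX chain, had 9 to 24 counts per library and a log2 fold change of -0.68 ± 0.30 (adjusted p 0.0784). It passed without WT 5 (-0.79), its lowest WT mouse, or without mdx/mTR 5 (-0.86), its highest mdx/mTR mouse. Either omission favours a fall. Col9a3 was not tested, at 4 to 15 counts per library. The cartilage markers Sox9 (1.42, adjusted p 7.7e-05) and Comp (1.45, adjusted p 5.1e-05) rose, while Acan and Matn3 were too low to test. Schwann cell markers fell in 4 of 5 cases, where 23.4% of all tested genes fell. They summed to 41.8 to 53.3 CPM in WT and 22.3 to 34.6 CPM in mdx/mTR. The part of either marker list in the result for Col9a1 was not tested.

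Col22a1, the FACIT of the myotendinous junction, was the most abundant FACIT per length in WT (3.78 ± 0.577 CPM per kb). It lay at 25.5, 32.6 and 39.3 CPM in WT and at 33.4, 38.9 and 43.6 CPM in mdx/mTR (0.21 ± 0.10, adjusted p 0.0845). It passed without WT 2 (0.27), without WT 4 (0.26), without both (0.34) and without mdx/mTR 2 and 5 (0.29). WT 2 and WT 4 held its highest WT levels (39.3 and 38.6 CPM). mdx/mTR 2 and 5 held its lowest mdx/mTR levels (35.4 and 33.4 CPM). Each of these omissions thus favours a rise, and the passes carry no weight as tests. Upper quartile scaling (0.25) and library totals alone (0.36) also called Col22a1 higher. Col20a1 had a log2 fold change of -0.20 ± 0.10 (adjusted p 0.119). It passed without WT 1, its lowest WT mouse (-0.26, adjusted p 0.0348), an omission that favours a fall.

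Both multiplexins rose. Col15a1, which lies in the basement membrane of muscle fibres and capillaries, was at 44.9, 78.8, 83.7, 69.1 and 76.5 CPM in WT 1, 3, 4, 5 and 6 and at 123 CPM in WT 2. In mdx/mTR it was at 108 to 125 CPM in 5 mice and at 229 CPM in mdx/mTR 2. Its log2 fold change was 0.76 ± 0.22 (adjusted p 0.0121), or 0.55 without mdx/mTR 2 (adjusted p 0.0242). Col18a1, the precursor of endostatin, lay at 8.78, 14.6 and 17.2 CPM in the lowest, median and highest WT mouse and at 20.6, 22.3 and 38.4 CPM in mdx/mTR. It rose by 0.96 ± 0.19 (adjusted p 0.0011), without overlap, or by 0.63 without mdx/mTR 2 and 5 (adjusted p 0.0021).

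Among the remaining classes, the short-chain network collagens of type VIII both rose. Col8a1, known from vessel walls and the cornea, lay at 5.28, 7.27 and 10.9 CPM in WT and at 13.8, 19.4 and 49.1 CPM in mdx/mTR. Its log2 fold change of 1.69 ± 0.31 (adjusted p 5.7e-04) was 1.12 without mdx/mTR 2 and 5 (adjusted p 4.3e-04). Col8a2 rose from 1.62 ± 0.761 to 3.13 ± 1.31 CPM (0.95 ± 0.30, adjusted p 0.0186), a call lost without mdx/mTR 2 and 5 (0.59, adjusted p 0.102). Of the transmembrane collagens, Col13a1, which is found at the neuromuscular junction, rose from 1.69 ± 0.231 to 2.84 ± 0.641 CPM (0.75 ± 0.16, adjusted p 0.0017). Col23a1 rose by 0.48 ± 0.17 (adjusted p 0.0264), a call lost when any 1 of WT 1 or 3 or mdx/mTR 1 or 6 was left out, with values of 0.38 to 0.45, and without mdx/mTR 2 and 5 together (0.43, adjusted p 0.0862). Col17a1 of epithelial hemidesmosomes had a log2 fold change of 0.01 ± 0.29 (adjusted p 0.978).

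Col7a1, the chain of anchoring fibrils, had a mean of 23.2 ± 5.57 CPM in WT against 20.9 ± 1.38 in mdx/mTR (-0.15 ± 0.13, adjusted p 0.334). Without WT 2 and 4 it passed as lower (-0.31, adjusted p 0.0259). That omission removes the lowest WT levels (17.1 and 18.6 CPM), so its p-value carries no weight as a test. Col28a1, a collagen known from Schwann cell basement membranes, lay at 0.957, 1.80 and 3.41 CPM in WT and at 3.63, 4.31 and 6.85 CPM in mdx/mTR (1.21 ± 0.26, adjusted p 0.0019), without overlap. Its rise stood beside a fall of 4 of the 5 Schwann cell markers, whose part in the result was not tested. Col26a1 rose by 1.13 ± 0.38 (adjusted p 0.0248), a call lost when any 1 of WT 1 or 6 or mdx/mTR 2 or 5 was left out, with values of 0.80 to 1.03. It was also lost in limma-voom (1.03, adjusted p 0.0537) and without mdx/mTR 2 and 5 together (0.53, adjusted p 0.191). Col10a1 and Col25a1 were not tested, at 0 to 14 and 3 to 18 counts per library.

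**Figure D3:**
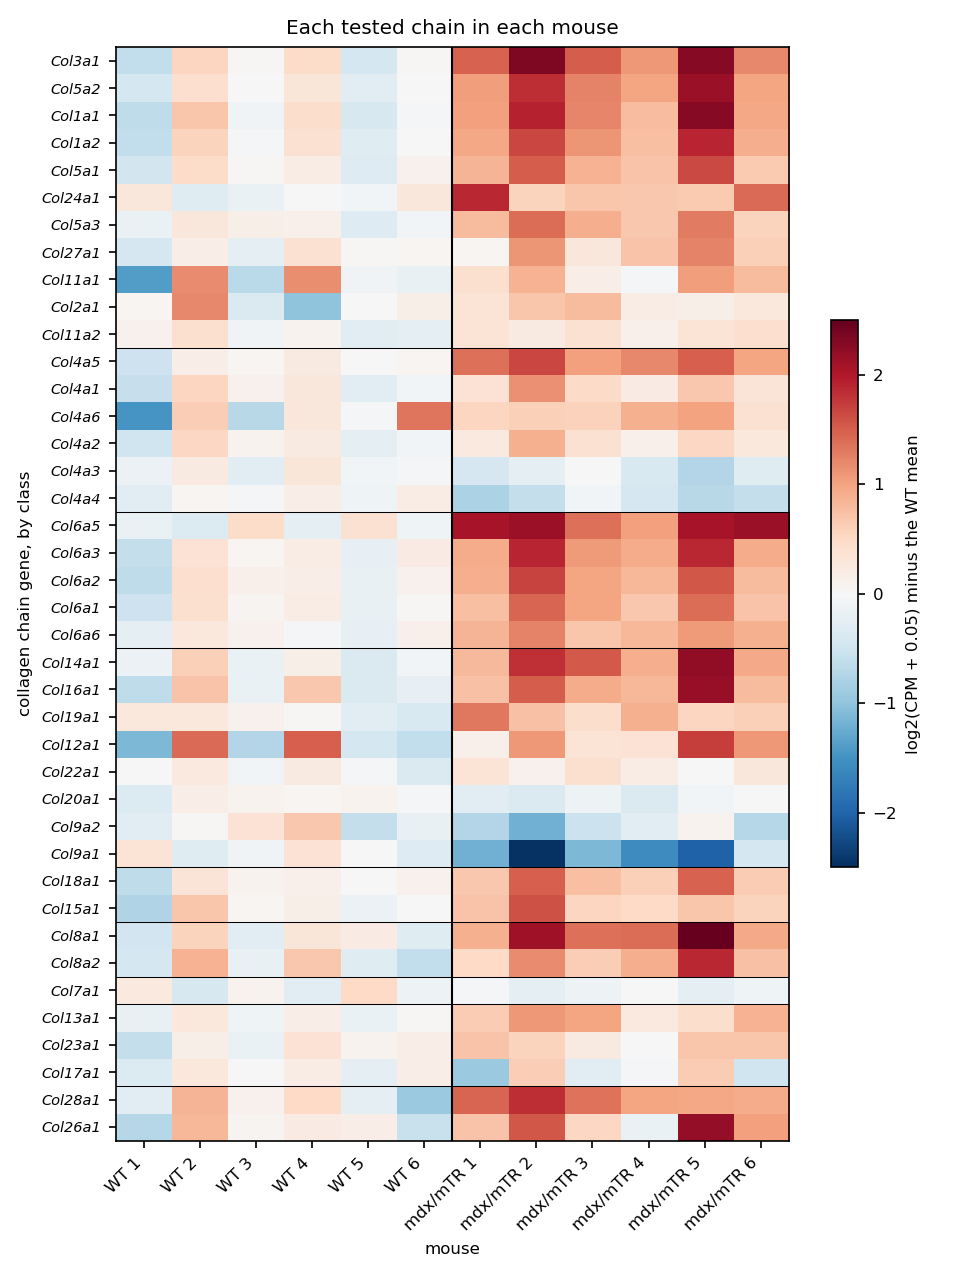
Log2(CPM + 0.05) of each tested chain in each mouse minus the WT mean, with chains by class on the vertical axis and mice on the horizontal axis. Red is above and blue below the WT mean. WT 1 is blue in most rows, mdx/mTR 2 and mdx/mTR 5 are the darkest red for types I, III and V and for Col6a1 to Col6a3, and Col9a1 is blue in all 6 mdx/mTR mice.

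The same few mice were the highest of their group for most raised chains. Among WT mice, WT 2 was the highest in 22 of the 27 raised chains and WT 1 the lowest in 19. Among mdx/mTR mice, mdx/mTR 2 was the highest in 12 and mdx/mTR 5 in 10. WT 2 and WT 4 were the 2 highest WT mice in 19 of the 27, and mdx/mTR 2 and mdx/mTR 5 were the 2 highest mdx/mTR mice in 19 of the 27. Such ranks were not counted over all tested genes, so they are not shown to be particular to collagen chains. Summed fibroblast and fibro-adipogenic markers (Pdgfra, Dpt, Ly6a, Dcn, Lum, Gsn, Mfap5 and Pi16) were at 1304 to 1501 CPM in WT and at 1851 to 2422 CPM in mdx/mTR, and 6 of the 8 rose. Gsn, at 1052 to 1603 CPM in mdx/mTR, made up most of that sum, which was highest in mdx/mTR 4 (2422 CPM). For 4 of the 6 markers that rose, Pdgfra, Dpt, Lum and Mfap5, mdx/mTR 2 and 5 were the 2 highest mdx/mTR mice, as for Lum at 114 and 107 CPM against 68.1 to 73.3 in the other 4. For Dcn and Gsn they were not. The same mice, mdx/mTR 2 and 5, were the highest for the summed macrophage markers, at 442 and 659 CPM against 234 to 409.9 in the other 4 mdx/mTR mice and 79.8 to 136 in WT. These mice were the highest pair for Cd68, Adgre1, Csf1r, Lyz2 and C1qa, whereas mdx/mTR 3 exceeded mdx/mTR 2 for Itgam and Mrc1. All 7 tested macrophage markers rose, where 25.0% of all tested genes did. Tendon markers summed to 344 and 486 CPM in mdx/mTR 2 and 5, against 242 to 333 in the other 4 mdx/mTR mice. Thbs4, at 245 and 367 CPM in mdx/mTR 2 and 5, made up most of that sum. The same mice were the highest pair for Thbs4 and Scx, but not for Tnmd, Mkx, Fmod and Chad. Of the tendon markers 4 of 6 rose, or 2 when any 1 of WT 1, 4, 5 or 6 or mdx/mTR 2, 3 or 5 was left out. In a bulk sample, more cells of a type and more RNA per cell cannot be told apart, and the part of these markers in the collagen results was not tested.

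Endothelial markers come from cells that lie on a basement membrane, and are given here beside Col4a1, Col15a1 and Col18a1. Of 7 such markers 4 fell (Kdr, Tek, Flt1 and Vwf) and 3 did not pass, where 23.4% of all tested genes fell and 25.0% rose. The endothelial sum was 569 to 722 CPM in WT and 437 to 539 CPM in mdx/mTR. Of 6 smooth muscle and pericyte markers 3 fell and Acta2 rose (a call lost without WT 2 and 4 and without mdx/mTR 2 and 5), with sums of 372 to 516 CPM in WT and 366 to 439 CPM in mdx/mTR. Adipocyte markers summed to 168 to 209.9 CPM in WT and 133 to 174 CPM in mdx/mTR, where 1 of 3 tested fell, and 3 of 4 satellite cell and myoblast markers rose. The part of these markers in the collagen results was not tested, and cell number and RNA per cell cannot be told apart. The marker and pathway lists overlap in part: Dcn, Lum, Fmod, Thbs4, Comp, Scx, Pdgfra and Cspg4 each stand in 2 lists.

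The make-up of the collagen message differed between the groups. Collagen counts took 0.251% ± 0.0701 of a WT library and 0.619% ± 0.235 of an mdx/mTR library (SD, n = 6 each). Of these, fibrillar chains held 52.6% ± 1.85 in WT and 64.1% ± 3.33 in mdx/mTR. Type IV chains held 26.6% ± 0.910 and 17.3% ± 2.33, type VI 12.2% ± 0.976 and 12.3% ± 0.588, and FACIT chains 3.35% ± 0.563 and 2.36% ± 0.350. The fibrillar share was at most 55.3% in WT and at least 60.8% in mdx/mTR, and the type IV share was 25.5% to 28.0% in WT and 12.7% to 19.0% in mdx/mTR, neither with overlap. Col3a1 alone went from 19.4% ± 1.25 to 28.1% ± 1.97 of collagen counts, whereas Col4a1 went from 15.0% ± 0.540 to 10.1% ± 1.29 and Col4a2 from 11.2% ± 0.485 to 6.89% ± 1.01. A share falls when other chains rise more, so the lower type IV share stands beside a higher Col4a1 level. These shares are given as a description, with no test.

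**Figure D4:**
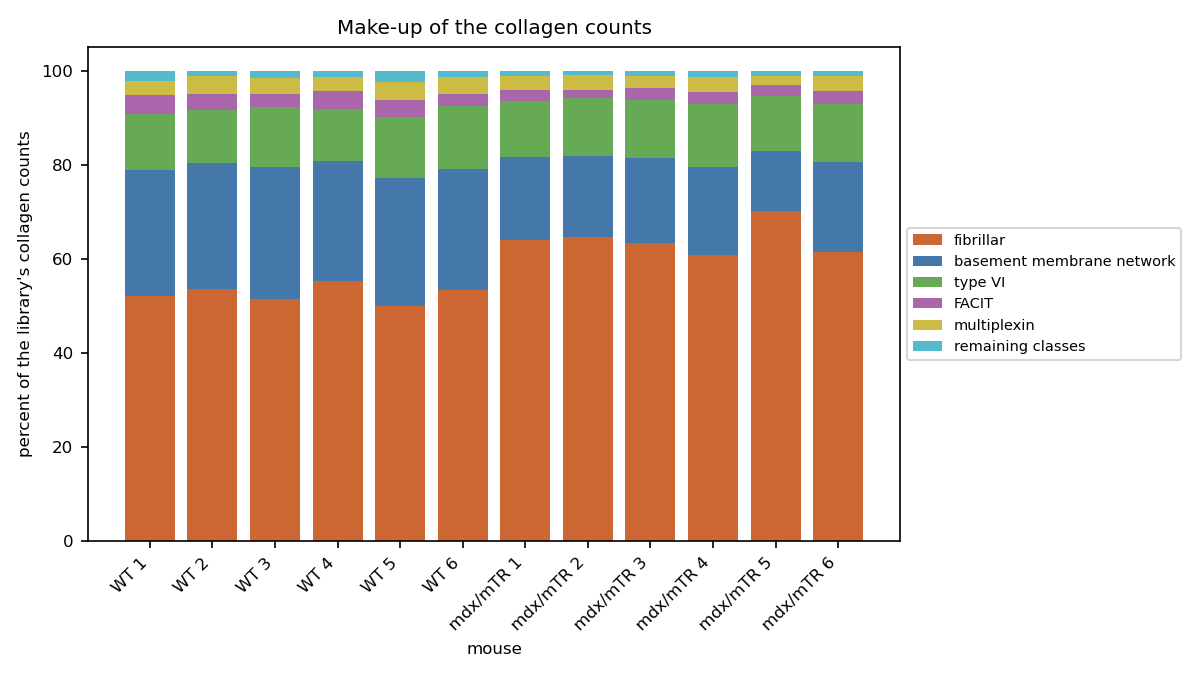
Percent of each library's summed collagen counts held by each class (vertical axis), 1 bar per mouse. The orange fibrillar part reaches at most 55.3% in WT and at least 60.8% in mdx/mTR, and the blue basement membrane network part is 25.5% to 28.0% and 12.7% to 19.0%.

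Ratios between chains within a library, which do not depend on library scaling, asked whether chains changed unequally. A total of 12 ratios were compared by two-sided exact permutation tests over all splits of the 12 mice into groups of 6, adjusted over the 12, and 8 passed. Such a test cannot give a p below 0.0022. The ratio of Col4a1 to Col1a1 counts was 1.56, 1.34, 1.71, 1.34, 1.62 and 1.45 in WT 1 to WT 6. The same ratio in mdx/mTR 1 to mdx/mTR 6 was 0.949, 0.881, 0.903, 1.01, 0.491 and 0.957. The groups did not overlap, and the log2 ratio differed by -0.83 (exact permutation, adjusted p 0.026), or by -0.67 without mdx/mTR 5. Col1a1 thus gained on Col4a1.

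Within the fibrillar class, Col3a1 gained on Col1a1, from a mean ratio of 1.94 to 2.36 (log2 difference 0.29, exact permutation adjusted p 0.026). Col5a1 lost ground to Col1a1 (-0.32, adjusted p 0.039), a call that did not hold when any 1 of WT 1, 3, 5 or 6 or mdx/mTR 2, 5 or 6 was left out (-0.32 to -0.26). Col5a2 kept a ratio of 0.185 to 0.256 in WT and 0.207 to 0.259 in mdx/mTR (0.02, adjusted p 0.918). The ratio of Col1a2 to Col1a1 was 1.25 to 1.48 in WT and 1.07 to 1.36 in mdx/mTR (-0.14, adjusted p 0.0693). It passed without WT 2 or without mdx/mTR 4, at -0.17 in each case. WT 2 had the lowest WT ratio and mdx/mTR 4 the highest mdx/mTR ratio, so either omission favours a fall. Col14a1 against Col1a1 differed by 0.01 (adjusted p 0.918) and Col12a1 against Col1a1 by -0.57 (adjusted p 0.148). Without WT 2 and WT 4, which hold the 2 highest ratios of Col12a1 to Col1a1 (0.0954 and 0.121), the latter difference was -0.13.

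Partners of 1 heterotrimer also changed unequally, by small amounts. In type IV, the ratio of Col4a2 to Col4a1 was 0.709 to 0.784 in WT and 0.624 to 0.715 in mdx/mTR (-0.13, exact permutation adjusted p 0.026). In type VI, Col6a2 to Col6a1 was on average 0.851 in WT and 0.933 in mdx/mTR (0.13, adjusted p 0.026). Col6a3 to Col6a1 was on average 0.955 in WT and 1.15 in mdx/mTR (0.27, adjusted p 0.026). The Col6a2 result did not hold without WT 1 or without mdx/mTR 2, at 0.11 in each case. The ratio of Col6a1 to Col1a1 differed by -0.36 (adjusted p 0.0482) and that of Col15a1 to Col4a1 by 0.24 (adjusted p 0.0487). Neither held when most single mice were left out: 8 of the 12 omissions ended the call of the first and 9 of 12 that of the second.

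**Figure D5:**
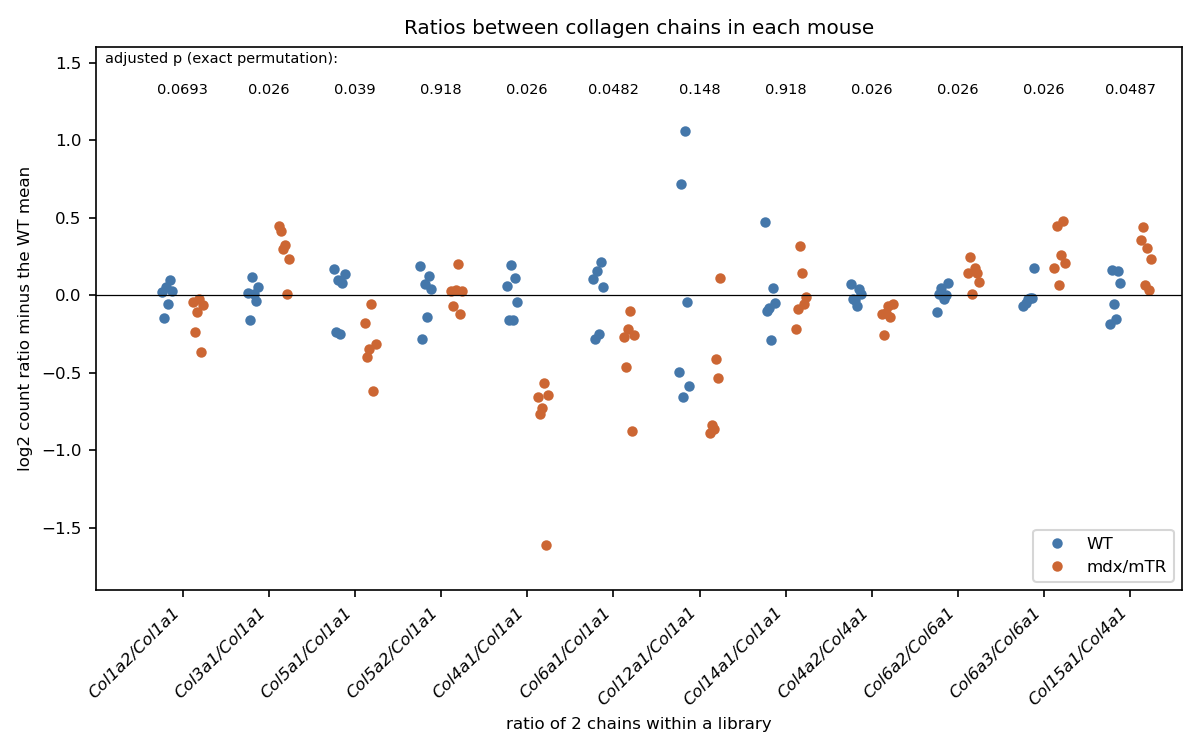
Log2 ratio of the counts of 2 chains within each library minus the WT mean of that ratio (vertical axis), for 12 ratios, WT in blue and mdx/mTR in orange. Adjusted p-values of the exact permutation test stand above the points. For Col4a1 against Col1a1 all 6 mdx/mTR mice lie below all 6 WT mice, with mdx/mTR 5 the lowest.

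Genes that act on collagen after its synthesis were read from the same fit, in which 25.0% of all tested genes rose and 23.4% fell. Of 24 tested genes for modification, folding and secretion of the chains 13 rose, 3 fell and 8 did not pass, with a median log2 fold change of 0.22; without mdx/mTR 2 and 5, 9 were higher and 4 lower. The smallest p-values were those of Mia3, which loads procollagen into transport vesicles and fell (-0.65, adjusted p 1.9e-06), P4ha2, a prolyl hydroxylase subunit that fell (-0.54, adjusted p 7.9e-06), and Crtap, a part of the prolyl 3-hydroxylation complex, which rose (0.86, adjusted p 4.2e-04). Of 13 tested genes for propeptide removal and crosslinking 10 rose and none fell, with a median of 0.74. Adamts14 (1.48, adjusted p 1.0e-05) and Adamts2 (0.70, adjusted p 9.6e-05) remove the amino-terminal propeptide, and Bmp1 (0.60, adjusted p 5.6e-05) the carboxy-terminal one.

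The next counts are to be read beside all tested genes, of which 25.0% rose and 23.4% fell. Of 13 tested genes for collagen breakdown and its inhibitors 7 rose and 2 fell, with a median of 0.52. Timp2, a protease inhibitor (0.52, adjusted p 9.0e-06), the gelatinase Mmp2 (1.22, adjusted p 9.2e-06) and the lysosomal collagenase Ctsk (1.68, adjusted p 9.5e-06) led by p-value. Of 11 tested collagen receptors 6 rose and 1 fell, with a median of 0.28; the fall was lost without WT 2 and 4 and with library totals alone. Antxr2 (0.76, adjusted p 1.6e-05), a receptor for type IV and VI collagen, Ddr1 (0.75, adjusted p 4.8e-05), a receptor kinase, and Lair1 (2.41, adjusted p 8.5e-05), an inhibitory receptor of immune cells, came first. Of 14 fibril-binding proteins 13 rose (9 without mdx/mTR 2 and 5), with a median of 1.01, led by Dcn (0.59, adjusted p 1.0e-05), Comp and Lum (1.38, adjusted p 6.4e-05). Of 15 profibrotic signals and factors 8 rose and 1 fell, with a median of 0.33, led by Runx1 (2.63, adjusted p 3.8e-07), Pdgfra (0.91, adjusted p 5.2e-06) and Sp1 (0.33, adjusted p 3.8e-05). With single mice left out, the falls numbered 1 to 3 for breakdown and 0 to 2 for profibrotic factors.

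In the authors' deposited table, 25.4% of genes with an adjusted p were called higher and 24.7% lower. All 27 raised and 3 lowered chains have the same call and direction in the authors' deposited table. It calls 2 further chains: Col4a2 higher (log2 fold change 0.37, adjusted p 0.0358) and Col25a1 lower (-0.83, adjusted p 0.022). Its log2 fold change for Col1a1 in the authors' deposited table is 1.15, against 1.40 in edgeR, while for Col4a3 both are -0.35. The settings behind the deposited values are not given, so the 2 estimates may differ in kind.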

How the data were processed

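Messenger RNA was sequenced from tibialis anterior in 12 mice, 6 WT and 6 mdx/mTR; groups and numbers come from the labels. The submitters' processing notes name FastQC, STAR, DESeq2 and mm10, without versions; counter, annotation and strand handling are not given in the sources used here. The authors deposited whole-number counts per gene. Per the file headers, the authors' deposited table of test results has a mean signal, a log2 fold change, a test score and p-values; only the log2 fold change and adjusted p were used. Of the 24421 entries, 5131 had no count, and 0 per-sample columns were unmatched.

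Counts were tested as deposited in edgeR 4.0.16 (R 4.3.3): filterByExpr (13937 genes, 99.97% of counts), TMM scaling, glmQLFit and glmQLFTest with group only, and Benjamini-Hochberg adjustment over all tested genes at 0.05. The SE is the log2 fold change divided by the square root of F. The procedure was tested on simulated counts. CPM use TMM-scaled totals. Levels per length divide by the longest coding transcript in GENCODE M21. Ratios used log2 counts with a pseudocount of 0.5. A floor of 3 counts is the 95% limit that a count of 0 allows, for counting error only. None of the 30 pairs of libraries within a group agreed within sampling noise.

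Members and lists were chosen with earlier results of these data known. Every chain may be named; levels are given mouse by mouse or as the lowest, median and highest of 6. The 3 smallest p-values of each pathway list are named. Alternatives were DESeq2 1.42.0, limma-voom 3.58.1, other scalings and filters, pseudocounts of 1 and 5, a replicate block, and each mouse left out. Leaving out WT 2 and 4, or mdx/mTR 2 and 5, was added after seeing the data.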

Additional observations from a re-analysis of the deposited data

Results flagged for a closer look

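Of 124 groups of 6 values examined (each tested chain, ratio and share in each group), 8 held a mouse whose gap to its neighbour was above Dixon's 95% critical value, as a share of the group's range; chance alone gives about 6.20. Among WT mice, WT 2 was far above the others for Col2a1 (0.670 CPM against 0.106 to 0.301) and WT 1 far below them for Col4a5 (2.31 CPM against 3.37 to 3.90). WT 6 stood apart for the log2 ratio of Col6a3 to Col6a1 (0.115 against -0.139 to -0.0830) and for the share of Col26a1 and Col28a1 in collagen counts (0.0560% against 0.106% to 0.129%). Among mdx/mTR mice, mdx/mTR 2 was far above the others for Col15a1 (229 CPM against 108 to 125) and mdx/mTR 5 for Col8a2 (5.65 CPM against 2.11 to 3.42). mdx/mTR 5 was also far below the others for the log2 ratio of Col4a1 to Col1a1 (-1.03 against -0.183 to 0.0118) and for the type IV share of collagen counts (12.7% against 17.2% to 19.0%).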

How the results depend on the processing

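Of the 40 tested chains, 25 kept their direction and their side of the threshold under every alternative run, 21 of them higher. Leaving out each mouse gave 24 to 29 chains higher and 2 to 5 lower, and the 5 lower came without WT 1 and without WT 5. With no filter on low counts, or with at least 10 counts in at least 6 libraries, 4 chains were lower. All 40 chains kept their calls under these 2 filters, so the added chain is one not tested in the main fit. Scaling by library totals alone called 5596 genes higher and 1560 lower. Col17a1, not past the threshold, turned negative in limma-voom (-0.11), with the replicate block (-0.06), without mdx/mTR 2 and 5 (-0.48) and over single omissions (-0.17 to 0.16); Col7a1 turned to 0.0032 with library totals alone. Single omissions gave log2 differences of -0.05 to 0.11 for Col14a1/Col1a1, -0.04 to 0.05 for Col5a2/Col1a1, 0.20 to 0.28 for Col15a1/Col4a1, -0.17 to -0.10 for Col1a2/Col1a1, -0.37 to -0.26 for Col5a1/Col1a1, -0.42 to -0.26 for Col6a1/Col1a1 and 0.11 to 0.16 for Col6a2/Col6a1. A pseudocount of 5 left Col15a1/Col4a1 at 0.24 (exact permutation adjusted p 0.0519).

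Without WT 2 and 4 the ratios were -0.08 for Col14a1/Col1a1 and -0.09 for Col5a2/Col1a1. Calls were lost for Col15a1/Col4a1 (0.24), Col3a1/Col1a1 (0.25), Col6a2/Col6a1 (0.13) and Col6a3/Col6a1 (0.25), and gained for Col1a2/Col1a1 (-0.19). Without mdx/mTR 2 and 5 calls were lost for Col15a1/Col4a1 (0.24), Col4a2/Col4a1 (-0.09), Col5a1/Col1a1 (-0.23), Col6a1/Col1a1 (-0.21), Col6a2/Col6a1 (0.10) and Col6a3/Col6a1 (0.18). With fewer mice the exact test has fewer splits, and in the other cases the cause was not tested.

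The labels do not say whether replicate numbers pair the mice. Same-numbered mice correlated above 0.1 in 2 of 6 pairs (0.354 and 0.285, the others -0.155 to -0.0283), and 2 mice correlated best with their own number. These values do not settle whether same-numbered mice share a handling step. With the replicate block 26 chains were higher and 2 lower: Col4a2 passed (0.41, edgeR adjusted p 0.0114), and Col11a2 (0.30, adjusted p 0.0627), Col23a1 (0.48, adjusted p 0.0524) and Col4a3 (-0.35, adjusted p 0.0521) did not. Under the block the paired exact test of ratios cannot go below 0.0312 before adjustment over the 12 ratios. It therefore has little room to pass any of them, and its outcome says little about the ratios. None of the 8 ratios that passed in the main test passed here: Col15a1/Col4a1 (0.24), Col3a1/Col1a1 (0.29), Col4a1/Col1a1 (-0.83), Col4a2/Col4a1 (-0.13), Col5a1/Col1a1 (-0.32), Col6a1/Col1a1 (-0.36), Col6a2/Col6a1 (0.13) and Col6a3/Col6a1 (0.27). Depth limits the chains under about 1 CPM, such as Col2a1, Col4a6 and Col9a2.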
